A study of Mus musculus with 16 samples.

Results

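Chemokine mRNAs were followed in myeloid-derived suppressor cells (MDSCs) sorted from the spleens of melanoma-bearing mice. The set is a list of symbols, drawn up with earlier results of these data known, and held 9 of the 24421 genes counted, namely the CC chemokines Ccl2, Ccl3, Ccl4, Ccl5, Ccl6 and Ccl9 and the CXC chemokines Cxcl2, Cxcl10 and Cxcl16. All 9 were found in the count tables. Monocytic M-MDSCs (CD11b high Ly6C+ Ly6G-) and granulocytic G-MDSCs (CD11b high Ly6C- Ly6G+) came from the same spleens of 4 WT (C57BL/6J) and 4 Nlrp3-/- mice, 1 mouse per RNA sample, which gave 4 groups of 4 libraries. Every mouse, controls included, carried a B16.F10 melanoma implanted in the back, so there is no tumor-free group. In the Nlrp3-/- strain (C57BL/6 background) an EGFP cassette with an SV40 poly(A) signal was placed in frame with the start codon in exon 2, in all cells of the animal, and a PGK-neo cassette had been removed by Cre. The mice were matched for age and sex at 6 to 12 weeks of age by the study's general rule. By a further general rule mice were analysed on day 15 of tumor growth unless stated otherwise, and no day was given for the sequenced samples themselves.

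Chemokines are small secreted proteins that bind to G protein-coupled receptors and draw leukocytes along their gradient. CC chemokines mostly act on monocytes, T cells and other mononuclear cells, whereas CXC chemokines with an ELR motif, such as Cxcl2, draw neutrophils through Cxcr2, and interferon-induced CXC chemokines, such as Cxcl10, draw activated T and NK cells through Cxcr3. In tumor-bearing hosts chemokines bring monocytes and neutrophils out of the bone marrow and into spleen and tumor, and these cells make chemokines in turn. Levels of the 9 mRNAs were compared between subsets and between genotypes to find out which chemokine transcripts each subset holds and whether loss of Nlrp3, the sensor of the NLRP3 inflammasome, goes with a different level.

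Libraries held 2295967 to 6079866 counts. Levels are given as normalised CPM, the count as parts of a fixed total (the usual CPM) after the library size was scaled by TMM over all 16 libraries, with factors of 0.722 to 1.459. A count of 3 in a library amounted to 0.349 to 1.17 normalised CPM. The Nlrp3 mRNA itself averaged 65.6 ± 22.5 normalised CPM (SD, n = 4) in M-MDSCs of WT mice against 0.981 ± 0.611 in those of Nlrp3-/- mice. In G-MDSCs it averaged 296 ± 34.2 in WT against 9.38 ± 3.76 in Nlrp3-/- mice. No Nlrp3-/- library reached the level of a WT library of its subset. The subset labels were checked against fixed marker lists. All 6 monocyte markers were lower, and all 7 neutrophil markers present in the tables higher, in G-MDSCs than in M-MDSCs in both genotypes (Ly6g was not among the symbols). One library stood apart. WT M-MDSC replicate 2 held 7672 normalised CPM of neutrophil markers in sum, against 1290 to 1594 in the other 3 WT M-MDSC libraries, 1732 to 2167 in Nlrp3-/- M-MDSCs and 104307 or more in G-MDSCs. Its sum was mostly S100a8 and S100a9. Over the WT M-MDSC libraries, S100a8 ran from 566 to 3723 normalised CPM, S100a9 from 364 to 2616, Camp from 86.2 to 885 and Ltf from 21.9 to 197. The other markers of the list spread less in absolute level, Mmp8 from 137 to 216, Csf3r from 16.2 to 41.0 and Cxcr2 from 0.535 to 3.52. Results that rest on WT M-MDSC replicate 2 are given with and without it. In sorted bulk cells, fewer cells of a type and less mRNA per cell cannot be told apart.

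Of the 9 genes, 7 lie on mouse chromosome 11 and 2 on chromosome 5 (mm10). Ccl5, Ccl9, Ccl6, Ccl3 and Ccl4 stand in that order within 138.9 kb (chr11:83525778-83664683), with only 1 other gene of the count tables annotated between them, the noncoding E230016K23Rik. Ccl9 (chr11:83572919-83578636) and Ccl6 (chr11:83587882-83593087) are neighbours on the minus strand, and E230016K23Rik overlaps Ccl6 on the plus strand. Ccl2 (chr11:82035571-82037453) and Cxcl16 (chr11:70453983-70459984) lie elsewhere on the chromosome, while Cxcl2 (chr5:90903871-90905938) and Cxcl10 (chr5:92346638-92348889) share chromosome 5.

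RefSeq promoter sequences (GRCm38.p6, 250 bases before to 50 bases after the start) were at hand for 5 of the 9 genes. Those of Ccl6 and Ccl9 are shown because these adjacent genes had opposite subset patterns, as the values given later show. Capitals mark the 4 runs of at least 8 bases that both promoters share in the same order, 13, 10, 11 and 8 bases long. The last 3 runs span a stretch of 40 bases, from 25 bases before the start to base 15 of the transcript in Ccl6 and from base 10 to base 49 in Ccl9, in which 36 bases (90%) were identical.
Ccl6, chr11:83593038-83593337, minus strand: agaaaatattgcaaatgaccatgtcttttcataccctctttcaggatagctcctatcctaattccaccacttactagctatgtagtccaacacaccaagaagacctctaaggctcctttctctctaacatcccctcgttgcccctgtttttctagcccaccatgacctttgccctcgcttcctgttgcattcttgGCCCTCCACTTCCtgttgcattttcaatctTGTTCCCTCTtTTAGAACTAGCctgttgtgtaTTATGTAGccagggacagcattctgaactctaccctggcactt
Ccl9, chr11:83578587-83578886, minus strand: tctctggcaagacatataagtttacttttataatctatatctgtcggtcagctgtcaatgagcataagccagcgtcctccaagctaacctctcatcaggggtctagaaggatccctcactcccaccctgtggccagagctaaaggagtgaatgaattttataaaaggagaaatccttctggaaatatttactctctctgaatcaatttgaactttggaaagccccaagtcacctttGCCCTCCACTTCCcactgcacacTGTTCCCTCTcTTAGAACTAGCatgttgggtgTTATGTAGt

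The promoters of Cxcl2 and Cxcl10 are shown because each held more than 1 match to a searched motif. They were searched on both strands for 3 motifs, an NF-kB-like one (GGG and TTCC parted by 3 bases of any kind), an IRF-like one (GAAA and GAAA parted by 2 bases) and an AP-1-like one (TGANTCA). Of 32851 promoters of the same length, 5.56% held the first, 3.44% the second and 7.81% the third. The Cxcl2 promoter had NF-kB-like matches 97 to 88 and 78 to 69 bases before the start, and the first of them overlapped a match on the other strand. The Cxcl10 promoter had NF-kB-like matches 159 to 150 and 104 to 95 bases before the start, an IRF-like match at 213 to 204 bases and an AP-1-like match at 74 to 68 bases. Ccl9 had 1 NF-kB-like match, 35 to 26 bases before the start on the opposite strand, and 1 AP-1-like match, while the letters of all 3 motifs were not found in this window of Ccl3 and Ccl6. Capitals mark the NF-kB-like matches and, in Cxcl10, also the IRF-like match.
Cxcl2, chr5:90903649-90903948, plus strand: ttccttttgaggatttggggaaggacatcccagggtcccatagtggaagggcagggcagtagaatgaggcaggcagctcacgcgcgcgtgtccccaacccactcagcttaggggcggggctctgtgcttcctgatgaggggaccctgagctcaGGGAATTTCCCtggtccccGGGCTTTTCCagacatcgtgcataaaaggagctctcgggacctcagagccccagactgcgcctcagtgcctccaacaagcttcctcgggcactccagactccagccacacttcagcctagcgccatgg
Cxcl10, chr5:92348840-92349139, minus strand: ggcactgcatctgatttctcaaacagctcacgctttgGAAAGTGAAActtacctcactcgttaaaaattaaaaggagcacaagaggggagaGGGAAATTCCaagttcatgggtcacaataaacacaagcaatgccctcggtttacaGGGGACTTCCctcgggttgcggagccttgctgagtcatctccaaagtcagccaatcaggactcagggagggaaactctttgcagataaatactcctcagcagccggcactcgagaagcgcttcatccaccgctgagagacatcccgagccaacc

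Divided by transcript length, Ccl6 was the most abundant of the 9 mRNAs in all 4 groups, with mean levels in M-MDSCs of 715 ± 285 CPM per kb (SD, n = 4) for WT and 858 ± 56.4 for Nlrp3-/- mice, and in G-MDSCs of 2922 ± 696 for WT and 3414 ± 537 for Nlrp3-/- mice. Cxcl2 came second in both G-MDSC groups, at 998 ± 521 and 876 ± 570 CPM per kb. In WT M-MDSCs, Cxcl2, Ccl3, Ccl5 and Ccl9 followed Ccl6 at 118 to 100 CPM per kb, and each differed from the next by less than the larger of their SDs. In Nlrp3-/- M-MDSCs, Cxcl2 stood sixth at 35.2 ± 28.1 CPM per kb, beside Ccl4 at 48.7 ± 15.9. Ccl2, Cxcl10 and Cxcl16 took the last 3 places in both M-MDSC groups, between 4.20 and 7.49 CPM per kb. In both G-MDSC groups Ccl9 joined them at 3.66 and 3.93 CPM per kb, and Cxcl16 was last at 0.405 and 0.409. These orders rest on annotated transcript lengths, and reads from a 3′ kit need not grow with length. Without division by length, Ccl9 stood second in both M-MDSC groups, at 302 and 343 normalised CPM, in place of rank 5 in WT and rank 4 in Nlrp3-/- mice.

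**Figure D1:**
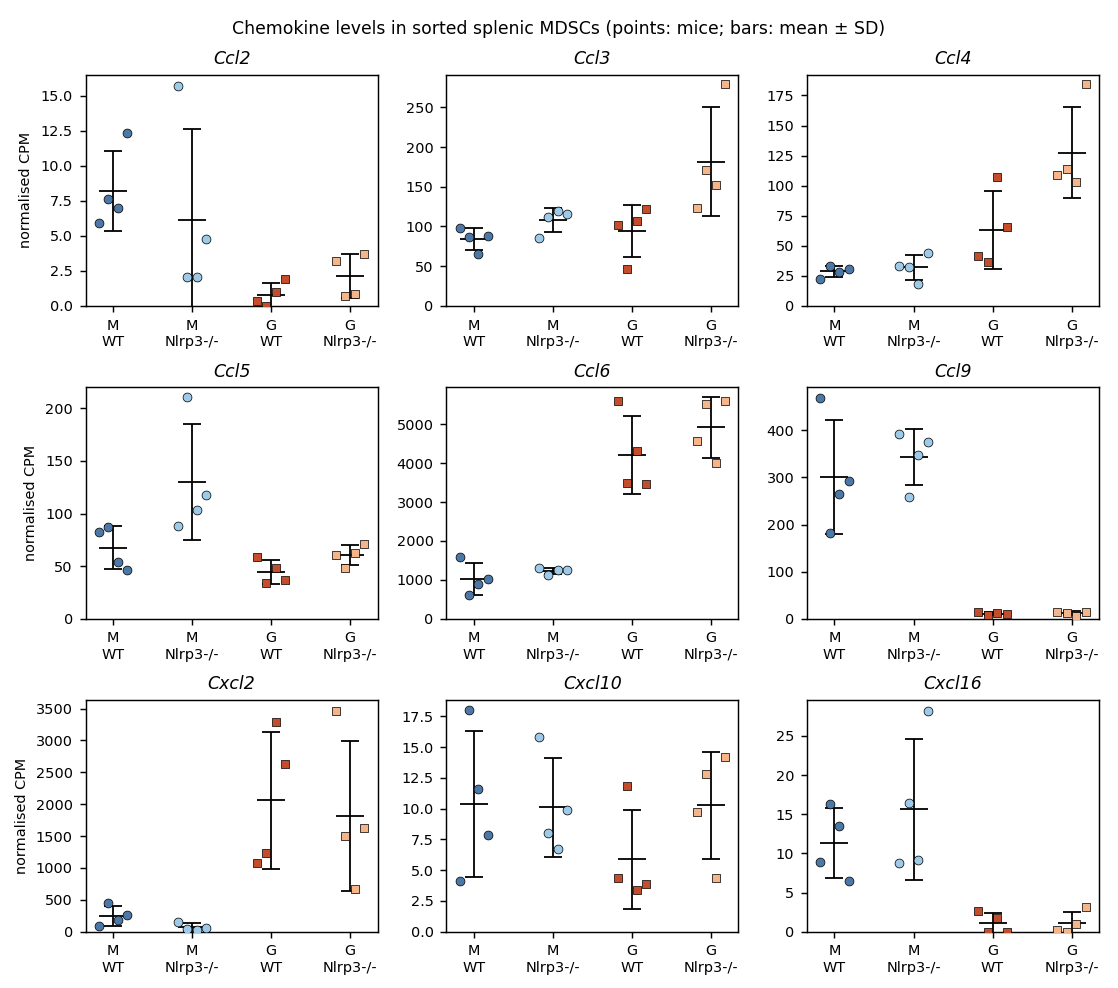
Normalised CPM of the 9 chemokine mRNAs, one panel per gene with its own linear axis from 0, in M-MDSCs (circles) and G-MDSCs (squares) of WT and Nlrp3-/- mice. Each point is 1 mouse and the bars are mean ± SD (n = 4), and Ccl6 and Cxcl2 sit higher, Ccl9 and Cxcl16 lower, in every G-MDSC library than in every M-MDSC library.

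The first comparison asked which chemokine mRNAs differ between the granulocytic and the monocytic subset. In WT mice, 3 of the 9 genes were called higher in G-MDSCs (Ccl4, Ccl6 and Cxcl2) and 3 were called lower (Ccl2, Ccl9 and Cxcl16), a call being an adjusted p (FDR) under 0.05 with a change above 1.5-fold. Over all 9739 genes tested, 26.3% were called higher and 27.1% lower, so that about as large a part of all genes differed between the subsets in each direction. In Nlrp3-/- mice, Ccl3, Ccl4, Ccl6 and Cxcl2 were called higher and Ccl5, Ccl9 and Cxcl16 lower, beside 23.7% of all 10071 genes tested called higher and 27.4% lower. The median log2 fold change of the 9 genes was -0.59 in WT and -0.12 in Nlrp3-/- mice, beside -0.05 and -0.12 over all genes tested. Scaling weighs on these values. With library size in place of TMM the median over all genes moved to -0.79 in WT and -0.83 in Nlrp3-/- mice, and the split of calls into higher and lower went from 2557 and 2636 to 1166 and 5061 in WT and from 2383 and 2758 to 1146 and 5034 in Nlrp3-/- mice. Upper-quartile scaling gave 2051 and 3324 in WT. Directions below that changed with the scaling are named where they occur.

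Ccl6 and Ccl9, which both signal through Ccr1, had opposite patterns. Ccl6 was at 1590, 613, 900 and 1015 normalised CPM in the M-MDSCs of WT replicates 1 to 4 and at 5592, 3488, 4299 and 3454 in their G-MDSCs. In Nlrp3-/- mice it was at 1317, 1124, 1261 and 1242 in M-MDSCs and at 4567, 5519, 3991 and 5590 in G-MDSCs. Every G-MDSC library lay above every M-MDSC library, with a log2 fold change of 2.03 (SE 0.29, FDR 9.48e-05) in WT and 1.88 (SE 0.16, FDR 2.98e-07) in Nlrp3-/- mice. Within the same mouse, G-MDSCs held 3.40 to 5.69 times the Ccl6 of M-MDSCs in WT and 3.16 to 4.91 times in Nlrp3-/- mice.

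Ccl9 went the other way. It was at 468, 182, 264 and 292 normalised CPM in WT M-MDSCs and at 15.4, 7.11, 11.4 and 10.1 in the G-MDSCs of the same mice. In Nlrp3-/- mice it was at 393, 258, 347 and 376 in M-MDSCs and at 14.6, 11.8, 6.42 and 14.4 in G-MDSCs. The M-MDSC and G-MDSC libraries did not overlap, and the log2 fold change from M-MDSCs to G-MDSCs was -4.77 (SE 0.33, FDR 2.72e-07) in WT and -4.99 (SE 0.27, FDR 3.41e-09) in Nlrp3-/- mice. Within a mouse, M-MDSCs held 23.2 to 30.5 times the Ccl9 of G-MDSCs in WT and 21.8 to 54.1 times in Nlrp3-/- mice. Among the M-MDSC libraries of WT mice, replicate 2 was lowest for both genes and replicate 1 highest for both. The noncoding gene between them, E230016K23Rik, stayed at 1.02 to 13.5 normalised CPM in all 16 libraries and was called in neither genotype.

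Cxcl2, a ligand of the neutrophil receptor Cxcr2, had the largest rise in G-MDSCs within the set. It was at 85.8, 450, 181 and 257 normalised CPM in WT M-MDSCs and at 1085, 1232, 3290 and 2639 in WT G-MDSCs. The Nlrp3-/- mice had 159, 48.1, 32.4 and 51.8 in M-MDSCs and at 3459, 1497, 668 and 1619 in G-MDSCs. The subsets did not overlap in either genotype, although the levels within a group spread more than those of Ccl6, and the G-MDSC library of Nlrp3-/- replicate 3 was the lowest of its subset. The log2 fold change was 3.08 (SE 0.50, FDR 0.000240) in WT and 4.50 (SE 0.56, FDR 1.30e-05) in Nlrp3-/- mice. Without WT M-MDSC replicate 2, the library with the high neutrophil marker sum, it was 3.51 in WT. The within-mouse ratio ran from 2.74, in the mouse of that library, to 18.2 in WT and from 20.6 to 31.3 in Nlrp3-/- mice.

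**Figure D2:**
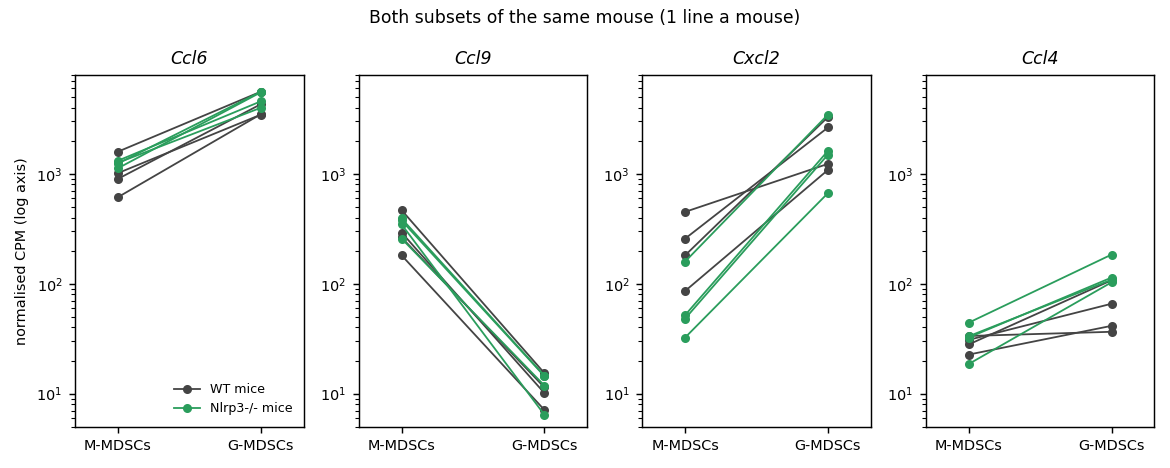
Normalised CPM (log axis) of Ccl6, Ccl9, Cxcl2 and Ccl4 in the M-MDSCs and G-MDSCs of the same mouse, 1 line per mouse, for 4 WT (grey) and 4 Nlrp3-/- (green) mice. Ccl6, Cxcl2 and Ccl4 rise and Ccl9 drops from M-MDSCs to G-MDSCs in all 8 mice.

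Ccl3 and Ccl4, inflammatory CC chemokines whose genes lie side by side, had smaller subset differences, near enough to the threshold for the scaling to change calls or signs. Ccl4 was at 22.7, 33.5, 28.0 and 30.8 normalised CPM in WT M-MDSCs and at 41.4, 36.6, 108 and 65.8 in WT G-MDSCs. Those of Nlrp3-/- mice were at 33.3, 32.4, 18.6 and 44.2 in M-MDSCs and 109, 114, 103 and 184 in G-MDSCs. All G-MDSC libraries were above all M-MDSC libraries within each genotype, with log2 fold changes of 1.13 (SE 0.31, FDR 0.00751) in WT and 1.86 (SE 0.26, FDR 4.27e-05) in Nlrp3-/- mice. With library size alone the WT value dropped to 0.40 and was not called, with FDR 0.279 against 0.000336 to 0.0256 under the other alternatives. Ccl3 was at 98.3, 86.2, 65.1 and 88.4 normalised CPM in WT M-MDSCs and at 101, 46.7, 107 and 122 in WT G-MDSCs, which overlapped. In Nlrp3-/- mice it was at 85.4, 111, 120 and 115 in M-MDSCs and at 124, 172, 152 and 280 in G-MDSCs, which did not. The log2 fold change of Ccl3 was 0.16 (SE 0.26, FDR 0.614) in WT and 0.63 (SE 0.22, FDR 0.0262) in Nlrp3-/- mice. The WT value turned to -0.57 with library size alone and to -0.06 with upper-quartile scaling. The Nlrp3-/- value turned to -0.10 with library size alone (FDR 0.692), and with the mouse as a block it was 0.58, under 1.5-fold, with FDR 0.0042. It was called under 12 of 19 alternatives, with FDR from 0.000407 to 0.692, and was not called without M-MDSC replicate 1 (0.54) or 2 (0.63) or without G-MDSC replicate 4 (0.38).

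Ccl5, a ligand of Ccr1 and Ccr3 that T and NK cells also make, was lower in the G-MDSCs than in the M-MDSCs of each of the 8 mice. In WT its level was 67.4 ± 20.4 normalised CPM in M-MDSCs and 44.7 ± 11.5 in G-MDSCs (SD, n = 4), with a log2 fold change of -0.59 (SE 0.25, FDR 0.0570) that was not called. In Nlrp3-/- mice the levels were 130 ± 55.1 and 60.7 ± 9.34 normalised CPM, with a log2 fold change of -1.21 (SE 0.24, FDR 0.000757) that was called. The WT value was called under 8 of 19 alternatives, over which the FDR ran from 0.000325 to 0.215, among them those without M-MDSC replicate 3 (-0.75) or 4 (-0.79) and without G-MDSC replicate 1 (-0.74).

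Ccl2 and Cxcl16 were near the counting limit in G-MDSCs. Ccl2, the main ligand of the monocyte receptor Ccr2, was at 5.95, 7.59, 6.96 and 12.3 normalised CPM in WT M-MDSCs and at 15.7, 2.05, 2.09 and 4.75 in Nlrp3-/- M-MDSCs, where replicate 1 stood far above the others. In WT G-MDSCs the 4 libraries held 1, 0, 4 and 5 counts of Ccl2, and in Nlrp3-/- G-MDSCs 14, 3, 4 and 14. Pooled over libraries, WT M-MDSCs held 9.68 times the Ccl2 of WT G-MDSCs (95% exact binomial interval 5.13 to 20.6, 161 against 10 counts), and in Nlrp3-/- mice the ratio was 3.49 (2.42 to 5.15, 194 against 35 counts). These intervals cover counting error alone. Across replicates the WT difference was called, at FDR 0.000540. The Nlrp3-/- difference was not, at FDR 0.0709, but was called with the mouse as a block, at a log2 fold change of -1.48 and FDR 0.0404, in a range of 0.0126 to 0.515 over the alternatives. Without M-MDSC replicate 1 it was -0.62 (FDR 0.515), and it was called without M-MDSC replicate 2 (-1.99) or 3 (-1.98).

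Cxcl16, which is made as a membrane-bound ligand of Cxcr6 and shed by Adam10, was at 8.92, 16.3, 13.6 and 6.51 normalised CPM in WT M-MDSCs and at 8.72, 16.4, 9.19 and 28.1 in Nlrp3-/- M-MDSCs. The WT G-MDSC libraries held 8, 0, 7 and 0 counts and the Nlrp3-/- G-MDSC libraries 1, 0, 5 and 12 counts. Every G-MDSC library was therefore below every M-MDSC library. The pooled level in M-MDSCs was 10.4 times that in G-MDSCs in WT (95% exact binomial interval 6.18 to 18.8) and 15.2 times in Nlrp3-/- mice (9.48 to 25.8). The test across replicates called the gene lower in G-MDSCs in both genotypes, at FDR 0.00129 in WT and 0.000370 in Nlrp3-/- mice.

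Cxcl10 was low in both subsets, at 10.4 ± 5.93 normalised CPM (SD, n = 4) in M-MDSCs and 5.87 ± 4.00 in G-MDSCs of WT mice and at 10.1 ± 4.03 and 10.3 ± 4.36 in those of Nlrp3-/- mice. The groups overlapped. Its log2 fold change was -0.85 (SE 0.51, FDR 0.170) in WT and -0.12 (SE 0.41, FDR 0.826) in Nlrp3-/- mice, and the latter changed sign under some alternatives. The WT value was called without WT G-MDSC replicate 2, at -1.43 and FDR 0.0286, and with library size alone, at -1.60 and FDR 0.0124, in a range of 0.0124 to 0.448 over the alternatives.

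**Figure D3:**
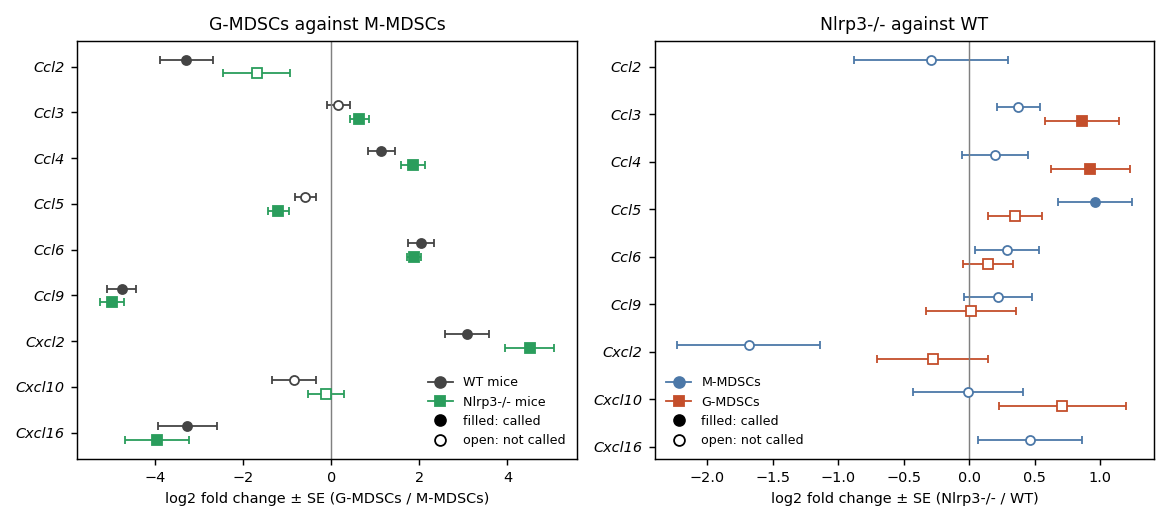
Log2 fold changes ± SE of the 9 chemokines between subsets (left, in WT and Nlrp3-/- mice) and between genotypes (right, in M-MDSCs and G-MDSCs), each from a fit of 8 libraries over all genes tested. Filled symbols were called, and Ccl2 and Cxcl16 have no genotype value in G-MDSCs because their counts were too low. Within each genotype, the subset differences of Ccl9, Ccl6 and Cxcl2 are the farthest from 0 relative to their SE.

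The second comparison asked whether Nlrp3 deficiency goes with other chemokine levels within a subset. In M-MDSCs 1 of the 9 genes, Ccl5, was called higher in Nlrp3-/- mice and 0 were called lower, beside 3.51% of all 9986 genes tested called higher and 7.10% lower. At an unadjusted p under 0.05, 3 of the 9 genes passed, Ccl5, Ccl3 and Cxcl2, beside 3002 of all 9986 genes, which is about as large a part. In G-MDSCs 2 of the 7 genes tested, Ccl3 and Ccl4, were called higher and 0 lower, beside 4.70% of all 9273 genes called higher and 11.7% lower. The same 2 passed an unadjusted p under 0.05, beside 2997 of all 9273 genes, again about as large a part. The median log2 fold change of the genes was 0.22 in M-MDSCs and 0.35 in G-MDSCs, beside 0.07 and 0.03 over all genes tested. All 3 calls lay close to the threshold. With library size in place of TMM the median over all genes moved to 0.17 and 0.16, and the split of calls into higher and lower went from 351 and 709 to 684 and 569 in M-MDSCs and from 436 and 1086 to 793 and 854 in G-MDSCs, where upper-quartile scaling gave 636 and 992. The genotype values of Ccl3, Ccl4 and Ccl5 in these calls kept their sign under each scaling.

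Ccl5 was at 82.1, 87.3, 53.9 and 46.3 normalised CPM in WT M-MDSCs and at 88.5, 211, 104 and 117 in Nlrp3-/- M-MDSCs. All 4 Nlrp3-/- libraries were above all 4 WT libraries, though replicate 1 only narrowly, and replicate 2 was the highest. The log2 fold change was 0.96 (SE 0.28, FDR 0.0473). It stayed positive under all 19 alternatives, at 0.59 to 1.11, and was called under 9 of them, with FDR from 0.00948 to 0.147. Without WT replicate 2 it was 1.11 with FDR 0.0589, and without Nlrp3-/- replicate 2 it was 0.59 with FDR 0.147. It was also not called without WT replicate 3 (0.86) or 4 (0.82) or without Nlrp3-/- replicate 3 (1.06) or 4 (0.98). In G-MDSCs, Ccl5 was at 59.1, 34.2, 48.7 and 37.0 normalised CPM in WT and at 60.3, 48.6, 62.4 and 71.3 in Nlrp3-/- mice, with a log2 fold change of 0.35 (SE 0.21, FDR 0.253) that was not called.

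The marker lists of other cell types stand beside Ccl5. The 12 T and NK cell markers summed in M-MDSCs to 107 to 150 normalised CPM for WT and 175 to 283 for Nlrp3-/- mice, and in G-MDSCs to 125 to 186 for WT and 194 to 254 for Nlrp3-/- mice. All 12 were detected in each group. Of 11 tested in M-MDSCs 1 was called higher, the granzyme Gzma, with a log2 fold change of 1.24 (SE 0.31, FDR 0.0251). The NK and T cell granule gene Nkg7 was not called there, at 0.64 (SE 0.26, FDR 0.127), and 0 markers of the list were called lower. Both genes were picked after their values were seen. Over the 11 tested, log2 fold changes ran from -0.30 to 1.24, with those of the T cell receptor genes Cd3d, Cd3e and Cd3g at 0.35, 0.27 and -0.30. The library with the highest Ccl5, Nlrp3-/- M-MDSC replicate 2, also had the highest marker sum. Red pulp macrophage markers summed in M-MDSCs to 163 to 176 normalised CPM for WT and 269 to 421 for Nlrp3-/- mice. All 10 were detected, and 6 of 10 were called higher and 0 lower, beside 3.51% and 7.10% of all genes. The part of either cell type in the Ccl5 result was not tested.

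**Figure D4:**
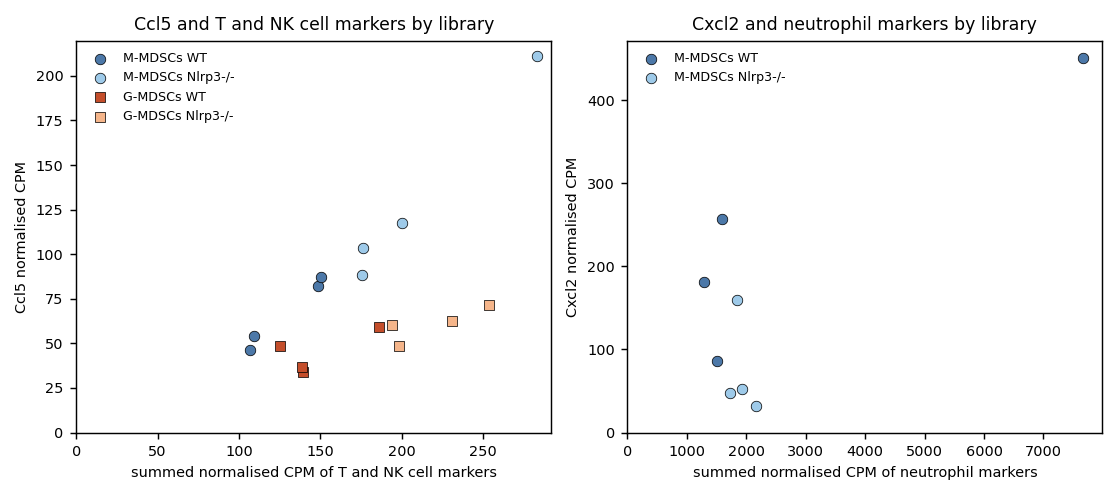
Left, normalised CPM of Ccl5 against the summed normalised CPM of 12 T and NK cell markers in all 16 libraries. Right, normalised CPM of Cxcl2 against the summed normalised CPM of 7 neutrophil markers in the 8 M-MDSC libraries, where WT replicate 2 stands alone at 7672 and 450, and each point is 1 library.

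Cxcl2 had the largest genotype difference of the set in M-MDSCs and missed the threshold. As given above, WT M-MDSCs ran from 85.8 to 450 and Nlrp3-/- M-MDSCs from 32.4 to 159 normalised CPM. Replicate 1 of the Nlrp3-/- group lay within the WT range and the other 3 lay below it. The log2 fold change was -1.68 (SE 0.54, FDR 0.0644). It was negative under all 19 alternatives, from -2.48 to -1.18, and was called under 5 of them, with FDR from 0.00447 to 0.199. Without WT replicate 2 it was -1.18 with FDR 0.199. It was called without Nlrp3-/- replicate 1, at -2.48 with FDR 0.00447, and without WT replicate 1, at -1.93 with FDR 0.04. In G-MDSCs the 2 genotypes overlapped widely and the log2 fold change was -0.28 (SE 0.42, FDR 0.689). The neutrophil marker sums given above for the M-MDSC libraries belong beside this result, that of WT replicate 2 being mostly S100a8 and S100a9. The part of neutrophils in it was not tested.

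Ccl3 and Ccl4 rose together in the G-MDSCs of Nlrp3-/- mice. Ccl3 averaged 94.2 ± 32.8 normalised CPM in WT and 182 ± 68.1 in Nlrp3-/- G-MDSCs (SD, n = 4), and the groups did not overlap, with 124 the lowest Nlrp3-/- and 122 the highest WT library. Its log2 fold change was 0.86 (SE 0.28, FDR 0.0488). Ccl4 averaged 62.8 ± 32.5 in WT and 127 ± 38.1 in Nlrp3-/- G-MDSCs, and WT replicate 3, at 108, lay within the Nlrp3-/- range. Its log2 fold change was 0.92 (SE 0.30, FDR 0.0479). Replicate 4 of the Nlrp3-/- group was the highest for both, and without it neither was called, at 0.59 (FDR 0.178) for Ccl3 and 0.71 (FDR 0.163) for Ccl4. When 1 library was left out, Ccl3 was called without WT replicate 4 or Nlrp3-/- replicate 1 only (both 1.01), at 0.59 to 0.95 without each of the others, and Ccl4 without WT replicate 3 only (1.34), at 0.71 to 1.02 without each of the others. Each gene was positive under all 19 alternatives and called under 10 of them, with FDR from 0.00493 to 0.178 for Ccl3 and from 0.00376 to 0.163 for Ccl4. That library also had the highest T and NK cell marker sum of the G-MDSCs, at 254 normalised CPM. Red pulp macrophage markers summed in G-MDSCs to 475 to 802 normalised CPM for WT and 1007 to 1266 for Nlrp3-/- mice. Of these markers 6 of 10 were called higher and 0 lower, beside 4.70% and 11.7% of all genes. The largest part of the sum was Slc40a1, at 447 ± 98.8 in WT and 596 ± 76.3 in Nlrp3-/- mice, which was not called (FDR 0.224). The sums of 3 further lists also did not overlap between genotypes in G-MDSCs, at 684 to 967 against 1010 to 1226 for monocyte markers (Csf1r called higher, at 0.64 with FDR 0.0388), 155 to 206 against 213 to 271 for dendritic cell markers and 27.8 to 54.5 against 55.4 to 62.0 for eosinophil markers. The T and NK cell sums given above did not overlap either. Sums of the neutrophil, B cell, platelet and megakaryocyte, basophil and mast cell, erythroid cell and melanoma cell lists did overlap. How often sums of other genes would separate the genotypes was not tested. The monocyte sum rests mostly on Csf1r and Ly6c2, the dendritic cell sum on Itgax and the eosinophil sum on Siglecf and Ccr3. Itgax averaged 176 in WT and 241 in Nlrp3-/- G-MDSCs and was not called (FDR 0.121). Klf4 (45.5 in WT and 28.3) and Ccr2 (8.53 and 6.26) of the monocyte list had lower means in Nlrp3-/- G-MDSCs. The same held for Clec9a and Xcr1 among dendritic cell markers and for Il5ra, Prg2 and Epx among eosinophil markers. The part of these cell types in the Ccl3 and Ccl4 results was not tested.

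In M-MDSCs the same 2 genes had log2 fold changes of 0.38 (SE 0.17, FDR 0.150) for Ccl3 and 0.20 (SE 0.25, FDR 0.640) for Ccl4, neither called. For Ccl6 the genotype values were 0.29 (SE 0.24, FDR 0.444) in M-MDSCs and 0.14 (SE 0.19, FDR 0.643) in G-MDSCs, and for Ccl9 0.22 (SE 0.26, FDR 0.606) and 0.01 (SE 0.34, FDR 0.983). The genes with the most separate subset levels, Ccl6 and Ccl9, were thus not called between genotypes. Ccl2 in M-MDSCs had -0.29 (SE 0.59, FDR 0.780) with all libraries and -1.42 (FDR 0.0342) without Nlrp3-/- replicate 1, which held 135 of the 194 Ccl2 counts of its group, and the FDR ran to 0.993 over the alternatives. Cxcl16 in M-MDSCs had 0.46 (SE 0.39, FDR 0.454). Cxcl10 had -0.01 (SE 0.42, FDR 0.992) in M-MDSCs, without a stable sign over the alternatives, and 0.71 (SE 0.49, FDR 0.335) in G-MDSCs. Ccl2 and Cxcl16 could not be tested between genotypes in G-MDSCs, where the counts were at most 14 in a library.

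A model of all 16 libraries was used to test whether M-MDSCs and G-MDSCs differed in their genotype effect. Of the 9 genes, 0 were called by edgeR's quasi-likelihood test, 0 passed an unadjusted p under 0.05 and 0 were called by DESeq2. Over all 10696 genes tested 0.0280% were called and 480 had an unadjusted p under 0.05. The differences with the smallest p were 1.55 (SE 0.75, FDR 0.992) for Cxcl2 and 0.85 (SE 0.43, FDR 0.992) for Ccl4 on the log2 scale, G-MDSCs minus M-MDSCs. Both were positive under every alternative run, from 0.87 to 2.1 for Cxcl2 and from 0.57 to 1.25 for Ccl4. For Ccl5 the difference was -0.51 (SE 0.37, FDR 0.992). A genotype effect limited to 1 subset was therefore not shown for any of the 9 genes, and the SEs of the difference ran from 0.33 to 1.12.

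Receptors of the chemokines split by subset. Ccr1, the receptor of Ccl3, Ccl5, Ccl6 and Ccl9, averaged 18.7 ± 5.11 normalised CPM in WT M-MDSCs and 463 ± 83.9 in WT G-MDSCs, with a log2 fold change of 4.65 (SE 0.23, FDR 3.00e-08). Cxcr2, the receptor of Cxcl2, averaged 1.59 ± 1.33 and 2605 ± 601 in the same groups, and Cxcr1 0.0465 ± 0.0929 and 38.3 ± 10.2. Ccr2, the receptor of Ccl2, averaged 1164 ± 297 and 8.53 ± 3.77 in these groups. Cxcl2 and its receptor Cxcr2 were thus both higher in G-MDSCs, and Ccl2 and its receptor Ccr2 both lower, while Ccl9 and its receptor Ccr1 went in opposite directions. Ccr2 and Cxcr2 are also markers of the 2 subsets. Cxcr3, the receptor of Cxcl10, stayed at 1.37 to 17.0 normalised CPM over all libraries and was called higher in WT G-MDSCs, at 1.20 (SE 0.40, FDR 0.0220). Cxcr6, Ackr1 and Ackr2 stayed under 8 normalised CPM in every library.

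Between genotypes, Ccr3 was called higher in Nlrp3-/- M-MDSCs (5.24 ± 4.45 against 25.3 ± 15.0 normalised CPM, log2 fold change 2.39, SE 0.54, FDR 0.0175). Eosinophil markers summed there to 23.0 to 68.1 normalised CPM against 4.28 to 25.2 in WT. That list holds Ccr3 itself, so its sum is not independent of the call. Of its other members, Prg2 averaged 6.27 in WT and 10.3 in Nlrp3-/- M-MDSCs (not called, FDR 0.577), and Siglecf 0.702 and 2.19. Epx (0.394 and 0.0522) and Il5ra (1.41 and 0.938) were lower in Nlrp3-/- M-MDSCs. The part of eosinophils was not tested. In G-MDSCs Cxcr2 was called lower (-1.26, SE 0.22, FDR 0.00152) and Cxcr1 higher (0.71, SE 0.23, FDR 0.0447) in Nlrp3-/- mice. Ccr1, Ccr2 and Cxcr3 were not called between genotypes in either subset.

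Of 3 enzymes that cut chemokines, Adam10, the main sheddase of Cxcl16, was called lower in Nlrp3-/- mice in both subsets, with log2 fold changes of -1.02 (SE 0.26, FDR 0.0287) in M-MDSCs and -1.03 (SE 0.23, FDR 0.00713) in G-MDSCs. Dpp4, which trims the N-terminus of many chemokines, was called lower in G-MDSCs than in M-MDSCs in both genotypes, at -1.54 (SE 0.41, FDR 0.00637) in WT and -1.39 (SE 0.38, FDR 0.00699) in Nlrp3-/- mice. Adam17 was not called in any comparison.

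Among 14 genes of the NF-kB pathway and its triggers, 5 of 13 tested were called higher and 1 lower in WT G-MDSCs against M-MDSCs, and 7 of 14 higher and 0 lower in Nlrp3-/- mice, beside the 26.3% and 27.1% of all genes called higher and lower in WT and the 23.7% and 27.4% in Nlrp3-/- mice. Il1b, the cytokine that the NLRP3 inflammasome matures, was at 266 ± 107 normalised CPM in WT M-MDSCs and 12767 ± 3604 in WT G-MDSCs, and the other 4 called higher were Tlr4, Myd88, Nfkbiz and Rela, while Nfkb1 was called lower. Between genotypes Rela was called higher and Rel lower in both subsets, at 0.77 (SE 0.18, FDR 0.0221) and -1.10 (SE 0.25, FDR 0.0195) in M-MDSCs and at 0.82 (SE 0.18, FDR 0.00787) and -1.40 (SE 0.28, FDR 0.00414) in G-MDSCs. Il1b was also called higher in Nlrp3-/- G-MDSCs, at 0.70 (SE 0.22, FDR 0.0378). Among the interferon response factors, Irf3, Irf7 and Irf1 were called higher in Nlrp3-/- M-MDSCs, and Irf7 and Irf3 in Nlrp3-/- G-MDSCs. Of 7 factors of mRNA decay, Zfp36l2 was called lower in Nlrp3-/- mice in both subsets, at -1.54 (SE 0.26, FDR 0.00507) and -1.86 (SE 0.19, FDR 4.43e-05), and Khsrp in M-MDSCs, at -0.68 (SE 0.17, FDR 0.0262). Zfp36, Zfp36l1 and Zc3h12a, which bind or cut the mRNAs of cytokines, were called higher in G-MDSCs than in M-MDSCs in both genotypes. These were 3 of the 7 decay factors tested, and 0 were called lower in WT and 1 in Nlrp3-/- mice.

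Of 29 other chemokines, 8 had no count in any library, 16 stayed under 3 normalised CPM, and 5 (Cxcl1, Cxcl9, Xcl1, Pf4 and Ppbp) reached 4.92 to 11 in their highest library. By edgeR 0 of them were called in any of the comparisons, and 0 passed an unadjusted p under 0.05, with 2 to 5 tested. The 9 genes described here stood above these in their highest libraries, and their summed level in M-MDSCs was 1494 to 2366 normalised CPM for WT and 1811 to 2116 for Nlrp3-/- mice, and in G-MDSCs 4857 to 7869 for WT and 4989 to 8346 for Nlrp3-/- mice. Ccl6 and Cxcl2 made up 64.7% to 72.4% of that sum in M-MDSC libraries and 92.7% to 97.2% in G-MDSC libraries.

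Each chemokine was also matched with the gene whose log2 CPM followed it most closely over the 16 libraries, among 10696 genes. The closest matches were F13a1, a coagulation factor of monocytes, for Ccl9 (Pearson r = 0.992), Glipr2 for Ccl6 (r = 0.987), Fam21 for Cxcl2 (r = 0.977) and Rtn4 for Ccl4 (r = 0.971). Those of Cxcl16, Ccl2 and Ccl3 were Cds1 (r = 0.958), Cox7b (r = 0.934) and Rapgef1 (r = 0.931). The match of Ccl5 was Nkg7 (r = 0.878), and that of Cxcl10 was Uhrf2 (r = 0.749), the loosest of the set. The 16 libraries share mice in pairs and fall into 2 subsets, so these values are descriptions.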

How the data were processed

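RNA of both sorted MDSC subsets was sequenced with the QuantSeq 3′ FWD kit, which reads transcripts from the poly(A) tail, with 15 or 17 cycles of amplification, not given per library. The authors mapped reads to mm10 with HISAT2 2.1.0, counted them per gene and strand with HTSeq and deposited raw counts for 24421 symbols per library. The study used edgeR 3.14.0, but its test was not given in the sources used here. Counts were analysed here in R 4.3.3 with edgeR 4.0.16: filterByExpr, TMM, and the quasi-likelihood test over all genes with Benjamini-Hochberg adjustment (FDR). A call needs FDR under 0.05 and a change above 1.5-fold, or FDR alone for the difference between subsets. Each contrast was fitted on its own 8 libraries, the difference of genotype effects on all 16. Levels are CPM scaled by TMM over 16 libraries, and log2 CPM used a prior count of 2. DESeq2 1.42.0 served the alternatives that used its size factors or its test. Simulated data with known changes were used to test the scripts.

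The 9 genes and all gene lists were chosen with earlier results of these data known. Genes named in the text are the 9, the receptors, Nlrp3, genes between the outermost members of the chromosome 11 cluster, the closest-correlated gene of each, and up to 5 called genes per list and comparison by smallest p. Some genes of these lists are not reported here. Gzma, Nkg7 and Prf1 were named as markers after their values were seen. Further marker lists were B cell (68.4 to 289 summed normalised CPM over all libraries), dendritic cell (26.9 to 271), erythroid cell (8.38 to 123), platelet and megakaryocyte (7.88 to 40.4), basophil and mast cell (1.37 to 9.70) and melanoma cell (0 to 1.45).

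Libraries held 2295967 to 6079866 counts. Of 24 pairs within a group 0 were identical, and chi-square per degree of freedom was 7.25 to 54.5, above sampling noise. Same-numbered M-MDSC and G-MDSC libraries of a genotype came from 1 mouse, as the labels say, and their deviations correlated at 0.10 to 0.45 in WT and 0.01 to 0.39 in Nlrp3-/- mice. Same-numbered WT and Nlrp3-/- libraries came from different mice. GC content and length came from GENCODE (mm10), in which 23376 symbols were found and 678 by an older name. Counts give no molecule numbers, since amplified reads are not independent.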

Additional observations from a re-analysis of the deposited data

Results flagged for a closer look

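Within the groups of 4 libraries, 3 of the 36 combinations of gene and group held a library whose gap to its nearest neighbour exceeded Dixon's 95% critical value, as a share of the group's range, and chance alone gives about 1 in 20. Ccl4 in Nlrp3-/- G-MDSC replicate 4 was at 184 normalised CPM, against 103 to 114 in the other 3 libraries of the group. Cxcl2 in Nlrp3-/- M-MDSC replicate 1 was at 159 normalised CPM, against 32.4 to 51.8, and the same library held 15.7 normalised CPM of Ccl2 against 2.05 to 4.75. Its neutrophil marker sum, 1844 normalised CPM, lay within the 1732 to 2167 of its group. Cxcl10 in WT G-MDSC replicate 2 was at 11.8 normalised CPM, against 3.39 to 4.34, and that library had the lowest Ccl3, Ccl4 and Ccl5 of its group.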

How the results depend on the processing

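Of 856 log2 fold changes of the 9 genes recomputed under alternatives, 763 kept sign and call, 24 gained a call, 35 lost one and 34 changed sign, and the cause was not tested. Depth limits Ccl2 and Cxcl16 in G-MDSCs, which held 0 to 14 counts a library. Between genotypes in M-MDSCs (1 of the 9 called in the report), 0 were called with DESeq2 size factors, GC content and length offsets, the replicate block or both together, and 2 with no filter, edgeR's exact test or the model of all 16 samples, and 0 to 3 when 1 library was left out. In G-MDSCs (2 called in the report) the count was 0 with GC content and length offsets, 1 with the replicate block, 0 with both together, and 0 to 1 when 1 library was left out. Same-numbered WT and Nlrp3-/- libraries correlated at -0.48 to 0.03 in M-MDSCs and -0.33 to -0.05 in G-MDSCs and share a number only. Over all genes, the call count between genotypes went from 1060 to 658 in M-MDSCs and from 1522 to 964 in G-MDSCs with GC content and length offsets, to 425 and 985 with the replicate block, to 48 and 398 with both, and to 450 to 1783 in M-MDSCs when 1 library was left out. Between subsets the count of the 9 called stayed within 6 to 8 when 1 library was left out, and the mouse block changed the calls of Ccl2 and Ccl3 in Nlrp3-/- mice and no other. The difference of genotype effects gave 0 of the 9 under every alternative run, and 3 called genes overall became 5 with no filter, 8 with DESeq2 and 5 without Nlrp3-/- G-MDSC replicate 3.

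The sign changes were these. Between genotypes in M-MDSCs, Cxcl10 went to 0.10 with library size, 0 with upper-quartile scaling, 0.02 with no filter, 0.04 with GC content and length offsets, 0.05 with the block and 0.13 with both, and to -0.37 to 0.43 when 1 library was left out, where Ccl4 ran from -0.04 to 0.39 and Cxcl16 from -0.02 to 0.71. In G-MDSCs, Ccl9 went to -0.01 with the block and to -0.14 to 0.22, and Cxcl2 to -0.79 to 0.07, when 1 library was left out. Between subsets, Ccl3 went to -0.57 in WT and -0.10 in Nlrp3-/- mice with library size, and in WT to -0.06 with upper-quartile scaling and -0.01 to 0.39 when 1 library was left out. Cxcl10 in Nlrp3-/- mice went to 0.05 with GC content and length offsets, 0.01 with the block and offsets, 0 in the model of all 16 samples, and -0.29 to 0.20 when 1 library was left out. In the difference of genotype effects, when 1 library was left out, Ccl6 ran from -0.33 to 0.13, Ccl9 from -0.39 to 0.11 and Cxcl16 from -1.77 to 0.18.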
